A study of Mus musculus with 605 samples.

Results

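The cells described here are bulge stem cells of the hairy nevus mouse model, divided by whether the mitotic kinase gene Cdk1 was read in them. Of the 94 mutant bulge cells, 89 were kept, and 27 of these held Cdk1 at a TPM of 1 or more while 62 did not. TPM counts a gene's reads relative to transcript length and to the total of the cell, and the members were chosen by their Cdk1 TPM alone. They are 89 of the 566 cells kept from 605 in the series, which also holds wild-type bulge cells, melanocytes and myeloid cells. Cells came from the dorsal skin of mice at postnatal day 56 (P56), in which the melanocyte-specific Tyr regulatory region drives an activated Nras, and which also carry the K14-H2B-GFP reporter, a green nuclear label under the keratin 14 promoter. The bulge cells are keratinocytes and so lie outside the lineage in which that oncogene is driven. They were sorted as GFP+, CD34+ and low in P-cadherin, so CD34 and P-cadherin protein chose the cells. The wild-type bulge cells come from reporter mice without the oncogene, at P30, when their follicles grow, and at P56, when they rest. Melanocytes were sorted as tdTomato+ from mutant and wild-type mice with Tyr-CreERT2 and a tdTomato reporter, induced with tamoxifen. Both melanocyte plates and both myeloid plates, from mutant and wild-type dorsal skin, are from P56, and no source used here gives the gate for the myeloid cells.

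The hair follicle bulge holds stem cells that rest for most of the hair cycle and divide briefly when a new hair is started. CDK1 pairs with B-type and A-type cyclins to take cells through G2 and into mitosis, and its transcript accumulates from S phase onwards. Stathmin (Stmn1) and the beta-tubulin Tubb5 supply and regulate microtubules, and survivin (Birc5) acts at the centromere and midbody of dividing cells. Quiescent bulge cells are known for keratin 15, CD34 and a basement membrane anchored by collagen XVII.

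No label names a mouse, so the plate is 1 sample, and the spread given is over cells. The split itself reads these cells, so every gene below is a description without a test or a replicate check. Differences are of mean log2(TPM per 10000 + 1) in Cdk1-positive minus Cdk1-negative cells, a scale on which low genes change little. Detection means a TPM of at least 1. Where a share of cells is given with an interval, it is the exact 95% Clopper-Pearson interval, which covers counting error only. The depth of a cell is unknown from TPM, so the number of genes above 0 is given in its place.

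The kept cells carried keratinocyte markers throughout. The summed TPM of Krt5, Krt14, Krt15, Krt17, Itga6 and Perp ranged from 1097 to 18287 in Cdk1-positive cells and from 4855 to 47325 in Cdk1-negative cells. T cell markers were at 0 in every cell, and of 4 endothelial markers only Cdh5 was read, in 1 cell at 5.64 TPM. The 5 melanocyte markers summed to 10 TPM or more in 4 cells of either set, up to 260 TPM in Cdk1-positive cells, with Tyr under 1 TPM in every cell. Myeloid markers reached 10 TPM in 8 Cdk1-positive and 21 Cdk1-negative cells, with Ptprc under 1 TPM in the first set and a highest sum of 10736 in the second. Fibroblast markers reached 10 TPM in 10 and 15 cells, with a highest sum of 2430 TPM in the first set, where Col1a1 and Pdgfra were under 1 TPM, and sebaceous markers in 26 and 45 cells. Their part in the results was not tested. Of the differentiation markers, Krt1, Krtdap, Lor and Dsc1 were under 1 TPM in every Cdk1-positive cell, while the list summed to as much as 23449 TPM in a Cdk1-negative cell. No 2 kept cells had identical columns.

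The share of Cdk1-positive cells was 30.3% of the kept mutant bulge cells (interval 21.03 to 40.99%). It was 8.33% (7 of 84, 3.42 to 16.4%) in wild-type bulge cells at P30 and 2.41% (2 of 83, 0.293 to 8.43%) at P56, on other plates. Genotype and plate cannot be told apart in the comparison at P56, nor genotype, age and plate in that with P30. Cdk1 ranged from 3.37 to 1939 TPM in the positive cells, with a median of 454 and a mean of 601 ± 536 (SD, n = 27). The 3 lowest were at 3.37, 4 and 28.97 TPM, and all 62 cells below the threshold were at 0, so no cell lay just outside it.

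Stmn1, Tubb5 and Birc5 served with Cdk1 as markers of cycling cells. Cdk1 (ENSMUSG00000019942.13) lies on chromosome 10 at 69335146 to 69352912, Stmn1 (ENSMUSG00000028832.11) on chromosome 4 at 134468320 to 134473843, Tubb5 (ENSMUSG00000001525.10) on chromosome 17 at 35833920 to 35838301 and Birc5 (ENSMUSG00000017716.15) on chromosome 11 at 117849237 to 117855743 (RefSeq, GRCm38.p6), all protein-coding. Promoters of genes that are transcribed late in the cell cycle often carry CCAAT boxes and the cell cycle homology region (CHR) TTTGAA. The windows below run from 250 bases before to 50 bases after the start of the gene, in the direction of the gene, and capitals mark CCAAT and TTTGAA on either strand. They are shown because the markers that moved together differ in these elements.

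Cdk1, chr10:69352863-69353162, minus strand: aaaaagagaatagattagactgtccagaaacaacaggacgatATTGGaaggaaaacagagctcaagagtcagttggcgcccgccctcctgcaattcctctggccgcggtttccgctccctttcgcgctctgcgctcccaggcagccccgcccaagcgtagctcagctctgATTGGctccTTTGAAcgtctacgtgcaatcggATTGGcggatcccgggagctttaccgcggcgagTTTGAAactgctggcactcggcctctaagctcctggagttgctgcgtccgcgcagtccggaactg

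Tubb5, chr17:35838252-35838551, minus strand: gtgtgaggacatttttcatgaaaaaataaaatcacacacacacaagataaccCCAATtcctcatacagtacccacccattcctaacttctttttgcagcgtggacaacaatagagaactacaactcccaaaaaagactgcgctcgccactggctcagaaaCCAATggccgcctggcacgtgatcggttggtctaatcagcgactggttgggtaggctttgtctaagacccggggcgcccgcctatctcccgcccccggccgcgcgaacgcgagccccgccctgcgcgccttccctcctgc

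Birc5, chr11:117848987-117849286, plus strand: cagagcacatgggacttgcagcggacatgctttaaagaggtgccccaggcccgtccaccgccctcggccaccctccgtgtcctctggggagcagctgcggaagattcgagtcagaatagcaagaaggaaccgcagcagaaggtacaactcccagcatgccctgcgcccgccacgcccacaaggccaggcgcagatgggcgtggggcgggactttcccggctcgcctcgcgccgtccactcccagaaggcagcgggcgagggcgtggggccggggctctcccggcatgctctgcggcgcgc

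The Cdk1 window held 3 CCAAT boxes and 2 CHR sequences. Tubb5 held 2 CCAAT boxes and no TTTGAA, and the Birc5 window held 0 of both. Neither motif contains the other. TTTGAA was in 64.2% of 53 windows for 48 matched genes of the G2/M list and in 17.9% of all 32851 windows. CCAAT was in 75.5% and 37.4%, and both were in 50.9% and 6.95%. Among genes off the cell cycle lists that were higher in Cdk1-positive cells by 0.5 or more, described below, 214 of 264 were matched to 260 windows, of which 13.5% held TTTGAA and 42.3% held CCAAT. Both were in 7.31% of these windows. For those genes the TTTGAA share was thus slightly below that of all windows and the CCAAT share slightly above. The G2/M genes had higher shares of each. Of 34 windows of the S phase list, 17.6% held TTTGAA and 67.6% held CCAAT. The matches are descriptions of letters.

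Cdk1 alone did not mark a uniform set of cells. Of the 54 G2/M genes the study used to assign cell cycle phase, 17 of the 27 cells held 26 to 53 at TPM 1 or more, with a median of 47, and the other 10 cells held 7 to 18. The 62 Cdk1-negative cells held 3 to 23, with a median of 7.5. The 17 cells with at least 20 G2/M genes also had all the higher Cdk1 levels, from 308 to 1939 TPM, against 3.37 to 281 TPM in the 10 others. Cdk1 is itself a gene of that list.

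The S phase genes divided the cells in the same way. The 17 cells held 29 to 42 of 43 S phase genes. Of the 10 others, 2 held 31 and 36 S phase genes with 18 and 14 G2/M genes. The remaining 8 held 10 or fewer S phase genes and 13 or fewer G2/M genes, which is within the range of the Cdk1-negative cells. In the other direction, 3 Cdk1-negative cells held at least 20 S phase genes, among them 1 cell with 37 S phase and 19 G2/M genes. The Cdk1-negative cell with 23 G2/M genes held 4 S phase genes. The share of a cell's TPM in the 255 measured genes of the cell cycle lists had a median of 3.96% in the 17 cells, 0.430% in the 10 and 0.424% in the Cdk1-negative cells.

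**Figure D1:**
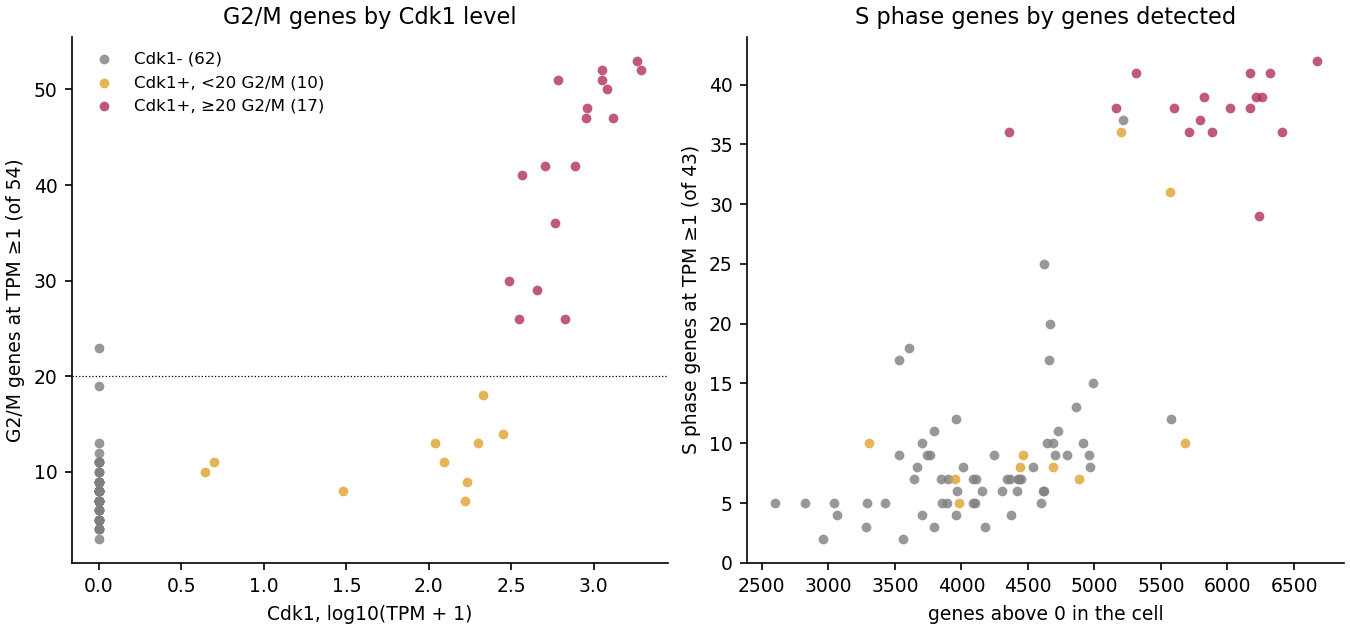
Each point is 1 of the 89 kept mutant bulge cells. Left, G2/M genes at TPM 1 or more (of 54) against Cdk1 as log10(TPM + 1), with a dotted line at 20 genes. Right, S phase genes at TPM 1 or more (of 43) against the number of genes above 0. The 17 cells above the line hold 29 to 42 S phase genes, and 8 of the 10 other Cdk1-positive cells lie among the Cdk1-negative cells.

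Genes detected per cell moved with the split. Cdk1-positive cells had a median of 5678 genes above 0 (3307 to 6670) and Cdk1-negative cells 4106 (2596 to 5579), and 15 of the 27 lay above every Cdk1-negative cell. The median was 6020 in the 17 cells and 4575 in the 10. Mitochondrial genes took a median of 4.87% of TPM in Cdk1-positive and 7.42% in Cdk1-negative cells. Values adjusted for the number of genes detected by a linear term are therefore given for the main genes and lists, with values from 11 pairs of cells matched within 250 genes where these differ. The matched positive cells were 9 of the 10 and 2 of the 17, so matching also removed most cells with a broad G2/M signature.

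The marker genes followed the broad signature more than Cdk1 detection. Stmn1 ranged from 0 to 3288 TPM in Cdk1-positive cells, with a median of 1448, and from 0 to 988 TPM in Cdk1-negative cells, with a median of 53.985. In 15 Cdk1-positive cells Stmn1 exceeded every Cdk1-negative cell. The difference was 2.504 (SD over cells 1.53 and 0.92), with 1.67 after adjustment and 0.86 in matched pairs. It was 3.52 for the 17 cells and 0.77 for the 10. Tubb5 had medians of 1271 and 151 TPM and a difference of 2.14 (1.38 after adjustment, 0.92 matched), with 16 positive cells above every negative one. Birc5 was read in 16 of 27 Cdk1-positive cells (59.3%, 38.8 to 77.6%) and in 0 of the 62 others, where 3 cells, the limit taken for a count of 0, would be 4.84%. All 16 were among the 17 cells with at least 20 G2/M genes, and the 10 other cells were at 0. Cells were placed among the 17 by their number of G2/M genes. Where a mitotic gene such as Birc5 falls is therefore not independent of that division. The 2 sets overlapped for Stmn1 and Tubb5 only through cells outside the 17 and the lowest of the 17.

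Across the plate, 9901 genes were detected in at least 10% of the kept cells. Of these, 358 (3.62%) were higher in Cdk1-positive cells by 0.5 or more and 132 (1.33%) lower, and 54.4% lay above 0 and 45.6% below. After adjustment 108 (1.09%) were higher and 152 (1.54%) lower, with 45.1% above 0 and 54.9% below. In matched pairs 253 (2.56%) were higher and 278 (2.81%) lower, with 50.3% above 0 and 48.8% below. Higher genes thus made up 73.1% of the calls, against 41.5% after adjustment and 47.6% in matched pairs. The median gene moved by 0.011. The 17 cells alone gave 690 higher (6.97%) and 235 lower genes (2.37%), with 53.8% above 0 and 46.2% below, and the 10 alone gave 136 (1.37%) and 88 (0.889%), with 48% above 0 and 51.8% below. Since the split used these cells, nothing is read from the shares. Leaving out the cell cycle lists, 9681 genes remained, with 264 higher and 132 lower. After adjustment 59 of the 264 and 75 of the 132 kept a difference of that size.

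The cell cycle lists were higher almost throughout, beside 54.4% of all tested genes above 0 and 3.62% called higher. Genes read mostly in Cdk1-positive cells could pass the 10% filter through those cells alone. The direction of these lists is therefore not independent of the split. All 43 S phase genes were above 0, and 24 were higher by 0.5 or more, with a median of 0.59. After adjustment 10 were called higher, beside 1.09% of all genes, with a median of 0.35. Ribonucleotide reductase subunit Rrm2 was detected in 96.3% of Cdk1-positive and 19.4% of Cdk1-negative cells, with a difference of 1.62. Thymidylate synthase Tyms differed by 1.56 and the sliding clamp Pcna by 1.32. All 52 tested G2/M genes were above 0, and 26 were called higher, with a median of 0.49. After adjustment 11 were called higher, with a median of 0.24. Ubiquitin-conjugating enzyme Ube2c and cyclin A2 (Ccna2) were each detected in 59.3% and 3.23% of cells, and the Cdk-binding subunit Cks1b differed by 1.21. The replication histone Hist1h2ap had the largest value of all, 3.40, with medians of 1470 and 0 TPM. Of 20 tested replication histones, however, 19 were above 0 and only 3 were called higher. Their median was 0.13, with 0.056 after adjustment and 0.0010 in matched pairs. Of 10 tested cell cycle transcription factors, 9 were above 0 and 0 were called, with a median of 0.045. For the 10 Cdk1-positive cells with few G2/M genes, the median over the S phase list was 0.08 and that over the G2/M list 0.00. The G2/M value is not independent of how the 10 were chosen.

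The genes outside the cell cycle lists with the highest differences were Stmn1, Tubb5, Tuba1b and Fabp5. After Stmn1 and Tubb5, the alpha-tubulin Tuba1b had medians of 2107 and 294 TPM and a difference of 2.05 (0.73 after adjustment, 0.26 matched), and 17 positive cells exceeded every negative cell. The tubulin and microtubule list as a whole had 10 of 16 genes above 0 and 7 called higher, beside 54.4% and 3.62% of all genes. Its median was 0.27, and after adjustment 3 were called higher and 1 lower. The histone variant H2afz, which replaces H2A at promoters, had medians of 3307 and 791 TPM and a difference of 1.44. The nucleosome-binding protein Hmgn2 differed by 1.24. Dut, which removes dUTP, differed by 1.23, the pyrophosphatase Dctpp1 by 1.16 and thymidylate kinase Dtymk by 1.15. The transport GTPase Ran had medians of 622 and 182 TPM and a difference of 1.22 (0.71 after adjustment, 0.58 matched). All 15 genes named by the rule for higher genes kept a difference above 0.5 after adjustment, from 0.56 to 1.67, and 12 were above 0 in matched pairs, where the median was 0.49. Of all tested genes, 1.09% were called higher after adjustment, and 50.3% were above 0 in matched pairs. The 15 were picked as the largest differences in these same cells, so these counts are no independent check.

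Syce2 and Dnajc9 were read in few Cdk1-negative cells. Syce2, known as a component of the meiotic synaptonemal complex, was detected in 74.1% of Cdk1-positive cells (53.7 to 88.9%) and 14.5% of Cdk1-negative cells (6.86 to 25.8%), with a difference of 1.25. Its span overlaps Gcdh, and no source used here says whether counting used strand. The histone-binding co-chaperone Dnajc9 was detected in 85.2% (66.3 to 95.8%) and 19.4% (10.4 to 31.4%), with a difference of 1.16. The unnamed transcript AI506816 differed by 1.26. The fatty acid binding protein Fabp5 had medians of 3702 and 343 TPM and a difference of 1.79 (0.68 after adjustment, 0.49 matched), and the chaperone Hsp90aa1 differed by 1.15.

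The metallothionein Mt2 differed by 1.41 but was split within the Cdk1-positive cells. Its median was 4898 TPM in the 17 cells, of which 15 were detected, and 0 in the 10 cells, of which 3 were detected, against 101 TPM in Cdk1-negative cells. The difference was 2.97 for the 17 and -1.23 for the 10. H2afz showed the same pattern at 2.42 and -0.22, and Hsp90aa1 at 1.91 and -0.14. The other 12 genes were above 0 in both sets, from 0.06 for Dctpp1 to 0.77 for Stmn1 in the 10 cells. Of all tested genes, 53.8% were above 0 in the 17 cells and 48% in the 10.

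**Figure D2:**
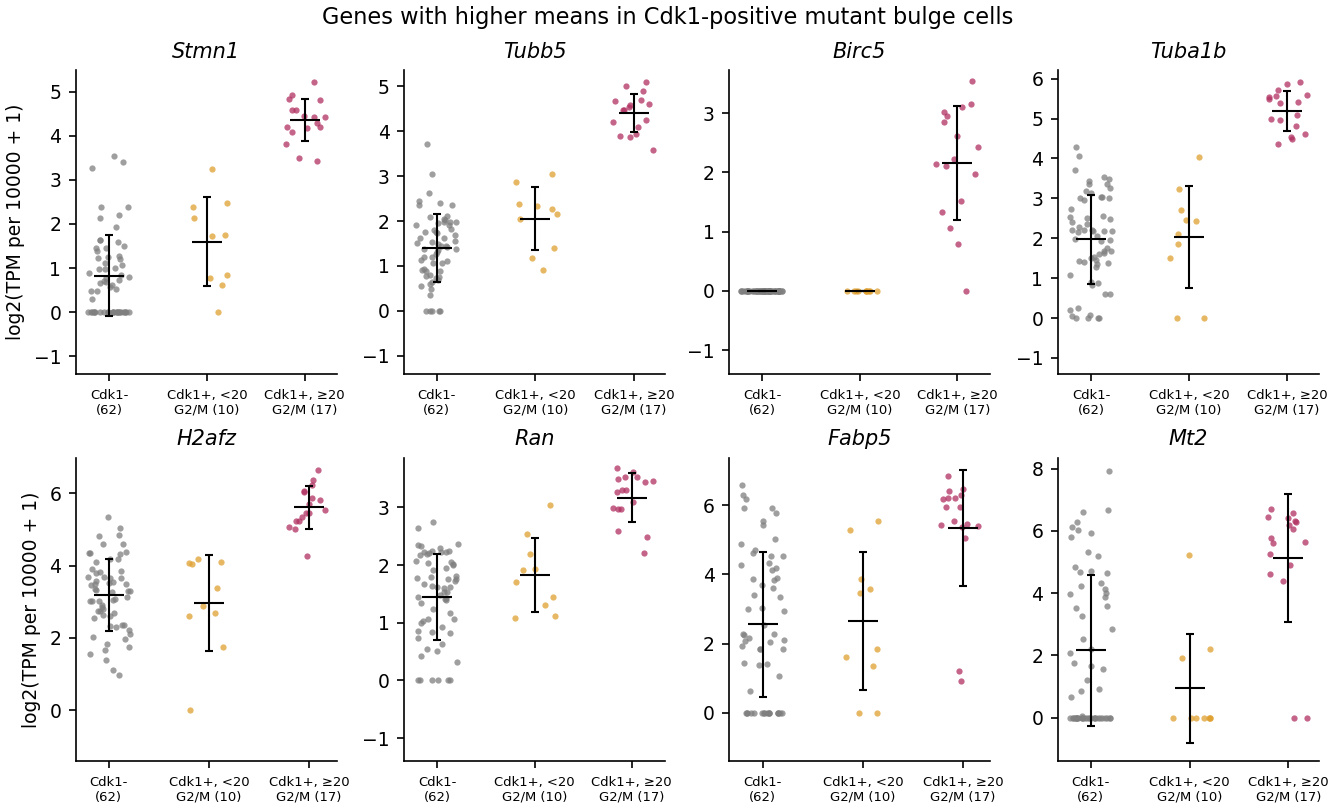
Log2(TPM per 10000 + 1) of 8 genes in each kept mutant bulge cell, by set (Cdk1-negative, Cdk1-positive with under 20 G2/M genes and with at least 20). Bars are means ± SD over cells. Birc5 is at 0 in all 62 and all 10 cells of the first 2 sets, and Mt2 is high in 15 of the 17 cells of the third.

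Lists of growth genes also had medians above 0, by smaller amounts that fell further after adjustment. Of all tested genes, 54.4% were above 0 and 3.62% called higher, and after adjustment 45.1% and 1.09%. Of 33 chromatin protein genes, 30 were above 0 and 16 were called higher, with a median of 0.46. All 30 nucleotide synthesis genes were above 0, with 14 called and a median of 0.44, and all 20 nuclear transport genes, with 8 called and a median of 0.41. Splicing genes had 29 of 30 above 0, 9 called and a median of 0.38, led by Lsm3 at 0.84 and Snrpd1 at 0.83. Chaperones had 11 of 25 called and a median of 0.42, with Cct7 at 0.89 and Hspa8 at 0.85. All 30 proteasome genes were above 0, with 9 called and a median of 0.37. No gene on these 6 lists was called lower. After adjustment the medians were 0.24 for chromatin and for nucleotide synthesis, 0.17 for nuclear transport, 0.12 for splicing, 0.075 for chaperones and 0.13 for the proteasome. The genes then called higher numbered 6, 8, 2, 0, 2 and 0 in that order, and 1 chaperone was called lower. Matched pairs gave medians of 0.072, 0.14, 0.14, 0.11, 0.041 and 0.14.

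Mitochondrial and ribosomal genes lay on the same side, beside the same shares of all genes. Of 76 nuclear genes for oxidative phosphorylation (OXPHOS), 70 were above 0 and 12 were called higher, with a median of 0.33 and the complex IV-associated Ndufa4 at 0.70. All 36 genes for the mitochondrial ribosome and import were above 0, with 13 called and a median of 0.39, and Mrpl42 differed by 1.002. Ribosome biogenesis genes had 28 of 30 above 0, 5 called and a median of 0.26, among them the snoRNP proteins Nop56 at 1.13 and Dkc1 at 0.99. Cytosolic ribosomal proteins had 44 of 46 above 0, 0 called and a median of 0.21. After adjustment the medians were 0.13 for OXPHOS, 0.18 for the mitochondrial ribosome, 0.09 for ribosome biogenesis and 0.20 for ribosomal proteins, and 3, 5, 1 and 0 genes were called higher.

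In the 10 cells with few G2/M genes, OXPHOS kept a median of 0.20, proteasome 0.18 and ribosomal proteins 0.14, whereas splicing (-0.0032), nuclear transport (-0.014) and ribosome biogenesis (0.0064) lay at the Cdk1-negative level. Whether the number of genes detected has a part in these list medians beyond the linear term was not tested.

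**Figure D3:**
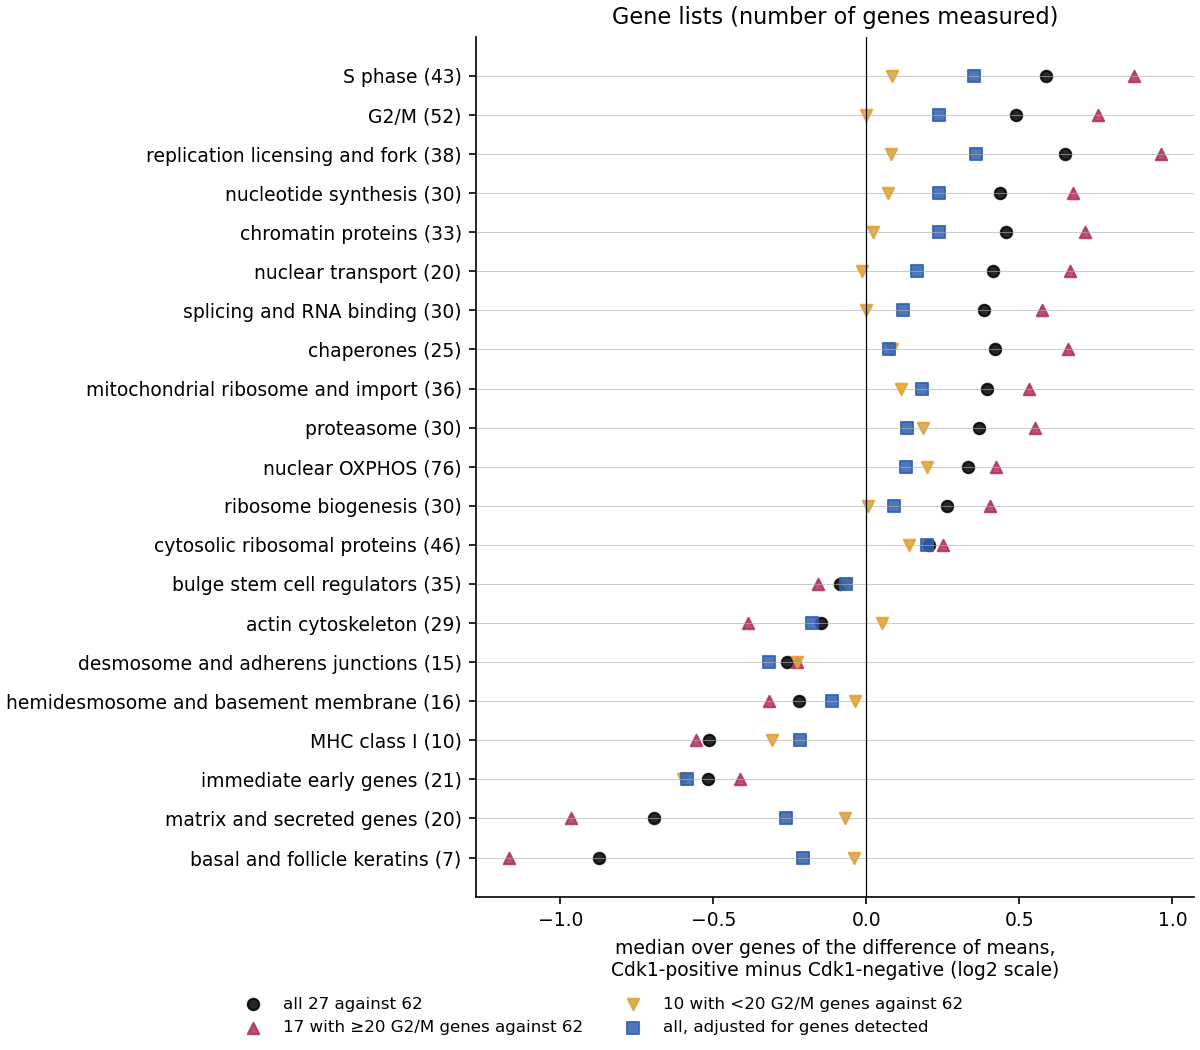
Median over the genes of each list of the difference between Cdk1-positive and Cdk1-negative cells (log2 scale), with the number of tested genes in parentheses. Circles are all 27 cells against 62, upward triangles the 17 cells, downward triangles the 10 cells and squares the values adjusted for genes detected. Immediate early genes lie between -0.41 and -0.60 under all 4, while keratins move from -1.17 in the 17 cells to -0.04 in the 10.

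Stem cell genes had small differences, more often below 0 than above. Of the 36 bulge stem cell regulators, 35 were tested, 10 were above 0 and 25 below, beside 45.6% of all genes below 0, and the median was -0.09, beside 0.011 for all genes. Before adjustment 2 were called higher and 2 lower, beside 3.62% and 1.33% of all genes. After adjustment these were 0 and 4, beside 1.09% and 1.54%. In matched pairs 19 were above 0 and 16 below. The surface marker of the sort, Cd34, was detected in 48.1% of Cdk1-positive and 45.2% of Cdk1-negative cells, and its difference was 0.0042 (SD 0.94 and 0.90). That value joined opposite signs, with -0.28 in the 17 cells (6 detected) and 0.48 in the 10 (7 detected). For Cd34 the difference was 0.26 after adjustment and 0.37 in matched pairs. Lgr5, the R-spondin receptor of active follicle stem cells, had medians of 80.7 and 83.7 TPM and a difference of -0.09. The transcription factors Sox9 (-0.10), Lhx2 (-0.08), Nfib (-0.15), Trp63 (0.04), Runx1 (0.05) and Tcf7l1 (-0.16) all lay within 0.2 of 0. Integrin Itgb1 and the RNA-binding Zfp36l2 were both at -0.29. Klf5, Zfp36l1, Id4, Itga6, Nfia, Id2, Nfatc1, Fzd7, Foxp1, Gata3, Ptch1 and Gli3 lay between -0.22 and -0.03, and Gli2, Sox4, Hopx, Lgr6 and Tcf7l2 between 0.01 and 0.13. Lgr6 was detected in 55.6% of Cdk1-positive and 17.7% of Cdk1-negative cells, and Hopx in 33.3% and 9.68%, at levels that moved the mean by 0.13 and 0.10. Among the 17 cells Lgr6 was detected in 14 and Hopx in 9, and among the 10 in 1 and 0. Their differences were 0.035 and 0.029 after adjustment, and -0.14 and 0.018 in matched pairs. The one member that did not reach the filter, Foxc1, was read in 1 Cdk1-positive cell and 0 Cdk1-negative cells.

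Krt15, the keratin by which bulge cells are often recognised, was the regulator with the lowest value. It ranged from 0.48 to 6895 TPM in Cdk1-positive cells, with a median of 1319, and from 0 to 13324 TPM in Cdk1-negative cells, with a median of 4375. In 17 of the 27 cells it lay below the lowest quartile of the Cdk1-negative cells, yet it was detected in 96.3% and 95.2% of cells. The difference was -1.33 (SD 1.77 and 1.61), and it was present in both Cdk1-positive sets, at -1.39 in the 17 cells and -1.24 in the 10. It was -1.73 after adjustment and -1.48 in matched pairs. The sets overlapped over most of their range.

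The other called members depended on the broad signature or on genes detected. The homeobox gene Cux1 had medians of 509 and 98.7 TPM and a difference of 0.73, with 1.36 in the 17 cells, -0.34 in the 10 and 0.17 after adjustment. The homeobox gene Msx2, a regulator of the growing follicle, was detected in 62.96% and 32.3% of cells, with a difference of 0.53, 0.96 in the 17, -0.21 in the 10 and 0.15 after adjustment. The T-box gene Tbx1, a factor for bulge stem cell self-renewal, differed by -0.63, with -0.62 after adjustment and 0.06 in matched pairs. The vitamin D receptor Vdr (-0.497), Postn (-0.49), Gas6 (-0.33) and Lrig1 (-0.31) were not called. After adjustment Vdr (-0.53) and Gas6 (-0.51) passed 0.5 and Postn was at 0.025, and in the 17 cells Vdr was at -0.75 and Postn at -0.81. In matched pairs Vdr turned to 0.30, while Postn was at 0.043, Gas6 at -0.66 and Lrig1 at -0.057.

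The quiescence genes that the study named could hardly be read in this plate. The study chose them on bulge cells of this kind, so their direction is not independent evidence. Of 10, only Col17a1 and Nfatc1 reached 10% of cells. Col17a1, the hemidesmosomal collagen XVII, was detected in 88.9% and 85.5% of cells with medians of 50.9 and 145 TPM, and its difference was -0.64 (SD 0.74 and 1.21). The lower value came from the 17 cells, at -1.05 with a median of 33.02 TPM, while the 10 cells differed by 0.05 with a median of 190 TPM. It was -0.13 after adjustment and 0.23 in matched pairs. Nfatc1 was read in 1 Cdk1-positive and 8 Cdk1-negative cells, a difference of -0.08.

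The other 8 were near or at 0 on either side of the split. Bmp2 was read in 0 and 4 cells, Tgm5 in 0 and 2, Wif1 in 1 and 2, Ctgf in 2 and 4, and Axin2 in 2 and 1. Foxc1 is on this list too, and Fgf18 and Grem1 were at 0 in all 89 cells. By the same limit of 3 cells, 0 of 27 allows up to 11.1%, and the exact interval reaches 12.8%, so a difference of a few percent in these genes was not detectable with these cells. Among Cdk inhibitors, which hold cells out of the cycle, 7 of 11 were tested. Cdkn1a (p21) differed by -0.65, detected in 14.8% and 30.6% of cells, with -0.61 in the 17 and -0.71 in the 10. Cdkn1b (p27) differed by -0.02 and the pocket protein Rbl1 by 0.33.

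Immediate early genes, which respond within minutes to growth factors and to handling of tissue, were lower as a group. None of 21 tested was above 0, beside 54.4% of all genes, and 12 were called lower, beside 1.33%, with a median of -0.52. Fos had medians of 48.3 and 107 TPM and highest values of 3162 and 12923 TPM, a difference of -0.92. Junb differed by -0.86, Dusp1 by -0.94 and Zfp36 by -0.89. The antiproliferative gene Btg2 had medians of 23.6 and 156 TPM and a difference of -0.98. Fosl1 was read in 0 of 27 and 13 of 62 cells. Atf3 was detected in 11.1% and 32.3% of cells, a difference of -1.10. The list median was -0.41 in the 17 cells, -0.60 in the 10, -0.59 after adjustment and -0.84 in matched pairs. It was -0.17 when cells were divided at 20 G2/M genes in place of Cdk1. That moves the 10 cells to the other side, and the 1 Cdk1-negative cell with 23 G2/M genes to the side of the 17.

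**Figure D4:**
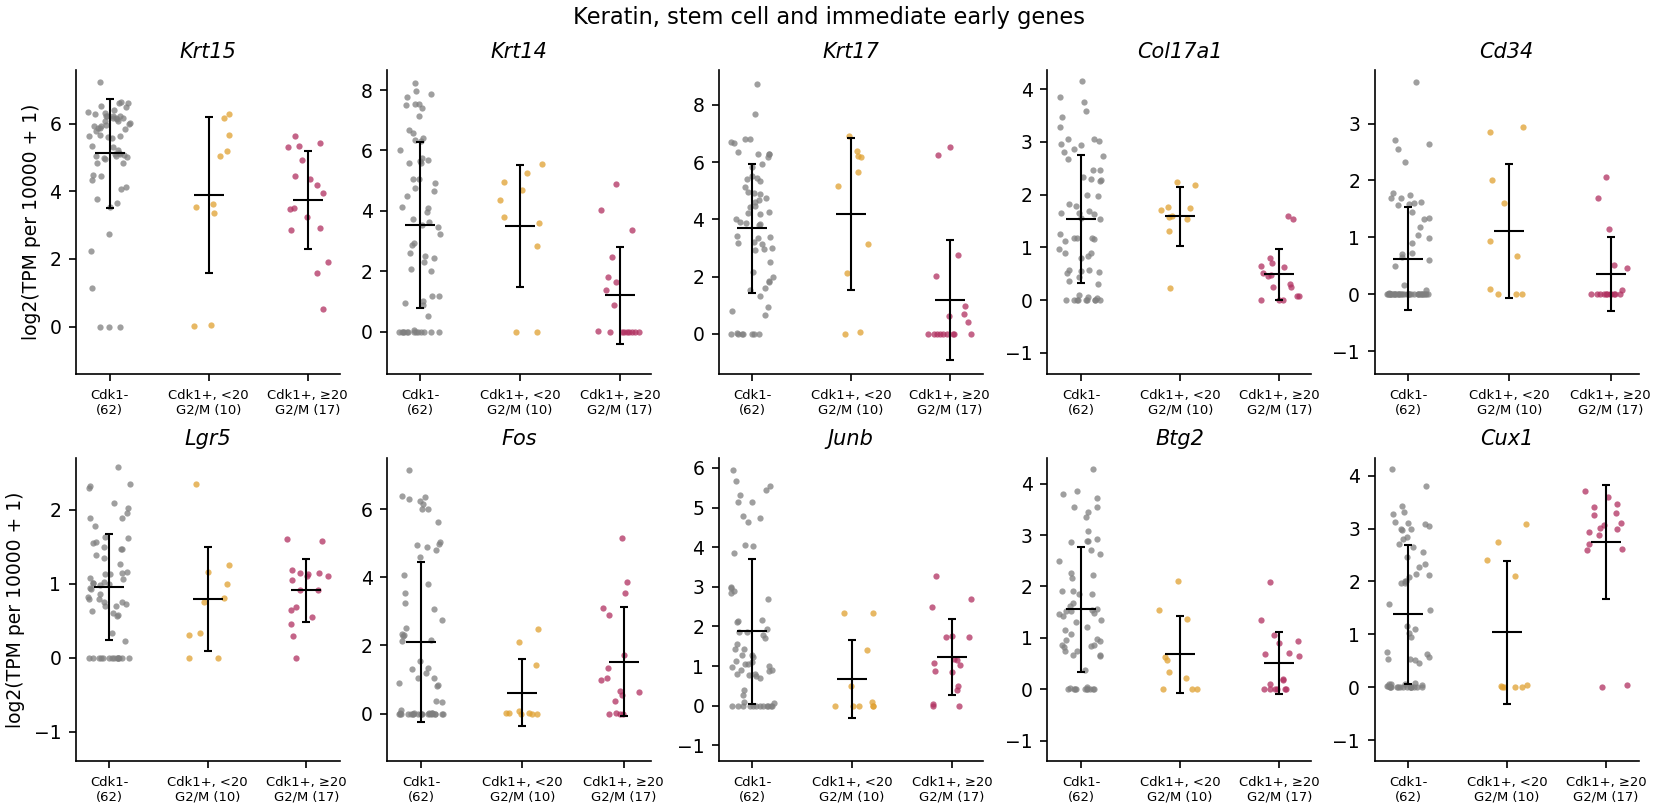
Log2(TPM per 10000 + 1) of keratin, stem cell and immediate early genes in each kept mutant bulge cell, by set, with means ± SD over cells. Krt15 and Btg2 have lower means in both Cdk1-positive sets, Krt14, Krt17 and Col17a1 differ by -1.05 to -2.502 in the 17 cells with at least 20 G2/M genes and within 0.5 of the negative cells in the 10, and Lgr5 differs by -0.04 and -0.16.

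Krt14 and Krt17 were lower in the 17 cells and not in the 10. Krt14, the basal keratin whose promoter drives the reporter, had medians of 191 and 999 TPM and a difference of -1.49. It was -2.34 in the 17, -0.04 in the 10, -0.21 after adjustment and -0.69 in matched pairs. Krt17 had medians of 56.3 and 1231 TPM and a difference of -1.395, with -2.502 and 0.49, and its value was 0.04 after adjustment and 0.73 in matched pairs. Krt5 differed by -0.88. The 7 tested keratins had 5 called lower, beside 1.33% of all genes, and a median of -0.88, which was -0.04 in the 10 cells. After adjustment that median was -0.21 with 1 called lower. In matched pairs it was -0.025, with 3 of the 7 above 0. Of the 5 outer bulge markers named by the study, Krt17 and Vdr among them, 4 were below 0 and 1 called lower, with a median of -0.25. That median was 0.04 after adjustment and 0.30 in matched pairs, where all 5 were above 0. Of 5 tested inner bulge genes, 4 were below 0 and 2 called lower, with a median of -0.29, and after adjustment 3 were below 0 and 1 called. Krt16, Chit1 and Krt80 of this list were read in 0 of 27 Cdk1-positive cells and in 12, 12 and 15 Cdk1-negative cells. They could pass the 10% filter only through Cdk1-negative cells, so this contrast is not independent of the split.

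Anxa2 and genes of the matrix and MHC class I lists were also lower. The membrane scaffold Anxa2 had medians of 185 and 787 TPM and the lowest difference of all named genes, -1.75, with -2.42 in the 17, -0.62 in the 10 and -1.06 after adjustment. The keratinocyte chemokine Ccl27a, whose span overlaps Il11ra1 and which has near-identical copies, differed by -1.60. The galectin Lgals3 was detected in 18.5% and 38.7% of cells, with a difference of -1.05. Of 20 matrix and secreted genes, 18 were below 0 and 12 called lower, beside 45.6% and 1.33% of all genes, with a median of -0.69. That median was -0.97 in the 17 cells and -0.069 in the 10, and -0.26 after adjustment (9 called) and -0.093 in matched pairs. All 10 tested MHC class I genes were below 0, with B2m, the shared light chain, at -1.21 and H2-K1 at -1.11, and a list median of -0.52, which was -0.22 after adjustment and -0.60 in matched pairs. The cell cycle brake Sfn (14-3-3 sigma) had medians of 349 and 855 TPM and a difference of -1.22, with -1.12 after adjustment. The small heat shock protein Hspb1 differed by -1.35 and -1.33 after adjustment.

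The adhesion lists lay below 0, by small amounts, beside 45.6% of all tested genes below 0 and 1.33% called lower. All 15 desmosome and adherens junction genes were below 0, with Perp (-0.72), Pkp3 (-0.65) and Dsp (-0.62) called, and so were all 16 hemidesmosome and basement membrane genes, with Lama5 at -0.74. The desmosome median was -0.26, with -0.32 after adjustment and -0.33 in matched pairs. The hemidesmosome median was -0.22, with -0.11 after adjustment, and in matched pairs 9 of the 16 were above 0 (median 0.045). Of 29 actin cytoskeleton genes, 22 were below 0 with 7 called lower and 1 higher, and 13 were below 0 in matched pairs (median 0.036). The cytoplasmic actin Actg1 had medians of 2116 and 3428 TPM and a difference of -1.01, with -0.98 after adjustment. The ion transport regulator Fxyd3 (-1.07), the calcium-binding S100a6 (-1.07) and the nuclear noncoding RNA Malat1 (-1.02) were nearer 0 after adjustment, at -0.43, -0.09 and 0.14. All 15 named lower genes were below 0 in the 17 cells, and 11 were in the 10, beside 46.2% and 51.8% of all genes. They were picked on these same cells, so these counts are no independent check. The exceptions, Krt17, S100a6, Malat1 and Fxyd3, were above 0 there by 0.03 to 0.49.

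The same split was made in the plates that the rule did not use, where few cells were Cdk1-positive. In wild-type bulge cells at P30, 7 were positive and 77 negative, with medians of 4258 and 3115 genes detected. There 14 of the 15 higher genes were above 0, beside 58.1% of all genes, and 12 of the 15 lower genes were below 0, beside 40.9%. After adjustment these counts were 14 and 10 of 15, beside 49.2% of all genes above 0 and 49.9% below. In mutant melanocytes, wild-type melanocytes and mutant myeloid cells the higher genes above 0 numbered 15, 14 and 13. Of all genes, 48.3%, 48.1% and 48.4% were above 0 there. The lower genes below 0 numbered only 8, 3 and 9, beside 49.5%, 48.1% and 43.4% of all genes. After adjustment the higher counts were 13, 14 and 12, beside 40.5%, 40.97% and 44.4% of all genes. The lower counts were then 11, 7 and 5, beside 57.4%, 55.3% and 47.4%. The single genes that follow are of the wild-type bulge cells at P30. Stmn1 averaged 791 and 117 TPM (1.93), H2afz 4723 and 1177 TPM (1.76) and Fabp5 3337 and 1440 TPM (1.59). Mt2 lay on the other side, at -0.99. Krt15 averaged 3512 and 5941 TPM, a difference of -1.44 (-0.54 after adjustment), B2m differed by -2.39 and Col17a1 by -0.68. Krt17 (0.31), Hspb1 (0.26) and Atf3 (0.04) were the lower genes that did not share the direction.

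Lists repeated this order in part. At P30 the medians were 0.42 for S phase, 0.17 for G2/M, 0.41 for OXPHOS, -0.02 for stem cell regulators, -0.76 for keratins and -0.10 for immediate early genes. After adjustment the P30 medians were 0.41 for S phase, 0.099 for G2/M, 0.027 for stem cell regulators and -0.071 for keratins. In mutant myeloid cells (7 of 72 positive) they were 0.13 for S phase, 0.35 for G2/M, 0.22 for OXPHOS and 0.19 for immediate early genes. Mutant and wild-type melanocytes had 3 positive cells each, and their immediate early medians were 0.05 and 0.44. Proteasome genes were above 0 in median on all 5 plates, from 0.30 to 0.76, but after adjustment they were at -0.089 in wild-type bulge cells at P30 and -0.085 in mutant myeloid cells. Adjusted OXPHOS medians were 0.073 at P30, -0.026 in mutant and -0.023 in wild-type melanocytes and -0.21 in mutant myeloid cells. Adjusted immediate early medians on the other 4 plates ran from -0.071 to 0.54, against -0.59 in mutant bulge cells. These differences between plates were not tested.

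**Figure D5:**
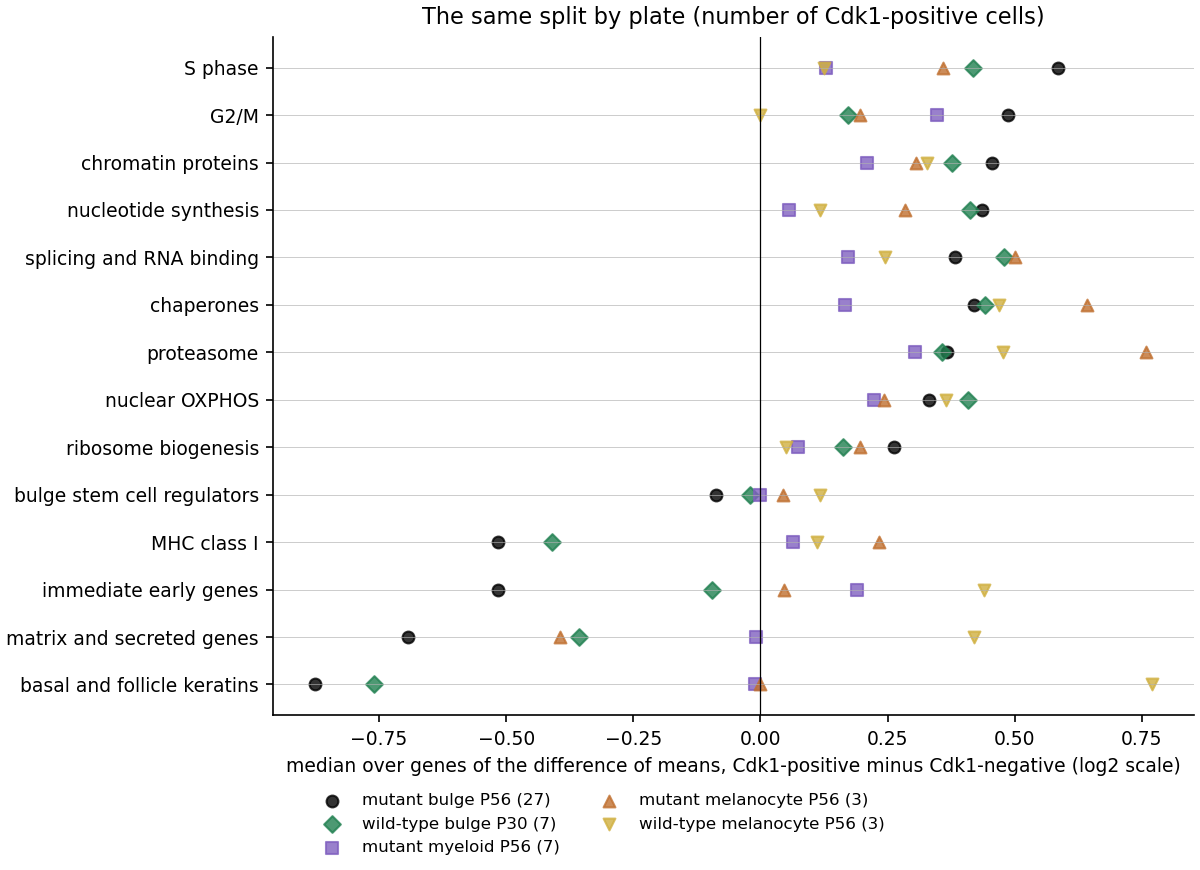
Median over the genes of each list of the difference between Cdk1-positive and Cdk1-negative cells (log2 scale) on each plate with at least 3 Cdk1-positive cells, with the number of positive cells in the key. Values are not adjusted for genes detected. OXPHOS and proteasome lie to the right of 0 on all 5 plates, which does not hold for either after adjustment, and immediate early genes lie furthest to the left in the mutant bulge plate.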

How the data were processed

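Single cells were captured on microfluidic chips, and the authors excluded by eye chambers with no cell or several, so no doublet caller was run here. Reads were aligned by the authors to mm10 (STAR 2.4.2 in the submitters' processing notes) with GENCODE genes and quantified with RSEM. The deposited values are TPM, 1 column a cell. The methods name FPKM for the quantification, while the tables and their labels name TPM. RSEM divides reads among near-identical copies, so values of genes with many copies (tubulins, H2afz, Hmgn2, Ran, MHC class I, histones) are uncertain. Of the deposited columns, 1 wild-type myeloid column matched no label and was not used.

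The 40 symbols with several of the 31002 identifiers were averaged, leaving 30957. Bulge cells were kept, after the study's methods, with 2000 to 7000 genes above 0, mitochondrial TPM of 20% or less and a summed TPM of 750000 or more. Melanocytes and myeloid cells needed at least 1000 genes. TPM were divided by the cell total, multiplied by 10000 and taken as log2(value + 1). Genes detected at TPM 1 in at least 10% of the 89 cells were described (9901), and called at a difference of 0.5. The named genes are the 15 highest and 15 lowest differences among genes in at least 25% of cells, leaving out genes of the cell cycle lists, the mitochondrial genome, the X and Y chromosomes where known, ribosomal proteins, pseudogenes and predicted genes. All quiescence and stem cell genes and the leading members of 63 lists were named too, and 4 list genes had no row. The division of the Cdk1-positive cells at 20 G2/M genes was added after the data were seen. The cell set, lists and alternatives were chosen with earlier results of these data known.

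Promoters and gene positions are from RefSeq (GRCm38.p6). Stmn1 was not matched to a promoter window. The steps were tested on simulated cells. Tables were handled with pandas 2.3.3 and NumPy 2.4.6 in Python 3.11.15, intervals came from SciPy 1.17.1 and plots from matplotlib 3.10.9.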

Additional observations from a re-analysis of the deposited data

How the results depend on the processing

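No paired analysis was possible because all cells came from 1 sample and no replicate numbers exist. The values describe 1 plate with no depth per cell. Any Cdk1 above 0 chose the same 27 cells, and all list medians and counts also stayed within the limits given next with Cdk1 at TPM 10 or more, without limits on cells, centred on the median gene, and without the 4 cells at TPM 10 or more in at least 2 of Krt1, Krt10 and Krtdap. These limits were 1.5-fold for counts and 0.25 for medians. The share of kept mutant bulge cells with Cdk1 was 28.1% at TPM 10 or more and 29.8% without limits on cells, both inside its interval. The division of the Cdk1-positive cells into 17 and 10 was chosen after seeing the data.

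Genes higher and lower by 0.5 numbered 4583 and 1054 on log2(TPM + 1), which gives low genes more weight, and 595 and 219 when cells were divided by 20 G2/M genes alone. Adjustment for genes detected gave 108 higher and matching 278 lower, the 17 cells 690 and 235, and the 10 cells 136 higher. On log2(TPM + 1) the medians were 2.82 for S phase, 2.86 for G2/M, 1.61 for ribosome biogenesis, 0.73 for OXPHOS, -1.14 for immediate early and -0.78 for quiescence genes. Matching gave 0.18, 0.033, -0.84 and 0.039 for S phase, G2/M, immediate early and quiescence genes, and adjustment gave 0.24 for G2/M. Immediate early genes were at -0.17 when divided by G2/M genes. Quiescence genes were at -0.014 with no filter and -0.64 with the 25% filter, which keeps Col17a1 alone. The 17 cells gave 0.87 and 0.76 for S phase and G2/M. The 10 cells gave 0.083, 0, 0.0064 and -0.011 for S phase, G2/M, ribosome biogenesis and quiescence genes.

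Among the genes followed across these settings, signs turned in matched cells for H2afz (-0.027), Mt2 (-0.88), Hsp90aa1 (-0.25), Krt17 (0.73), S100a6 (0.47) and Malat1 (0.79). They also turned there for Col17a1 (0.23), Msx2 (-0.016), Tbx1 (0.057) and Vdr (0.30). After adjustment they turned for Krt17 (0.042) and Malat1 (0.14). They turned in the 10 cells for H2afz (-0.22), Mt2 (-1.23), Hsp90aa1 (-0.14), Krt17 (0.49), S100a6 (0.34), Fxyd3 (0.031), Malat1 (0.32), Col17a1 (0.054), Cux1 (-0.34) and Msx2 (-0.21). The cause was not tested.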

Other observations

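Single genes outside the lists above stood apart within the Cdk1-positive cells. The glutathione transferase Mgst1, on the sebaceous marker list, was detected in 70.4% of Cdk1-positive cells (49.8 to 86.2%) and 24.2% of Cdk1-negative cells (14.2 to 36.7%). Its difference of 0.88 was 0.68 in the 17 cells with at least 20 G2/M genes and 1.23 in the 10 others, and 0.83 after adjustment. The growth factor binding gene Igfbp4 had differences of opposite sign in these sets, -1.23 in the 17 and 1.13 in the 10, with -0.36 over all. Glycolysis genes had a median of 0.02, with aldolase Aldoa at -0.91 and Gapdh at 0.61. Among amino acid genes, the serine synthesis enzyme Phgdh was at 0.61 and the transporters Slc7a8 and Slc38a2 at -0.66 and -0.57. Of 11 tested hair germ and matrix genes, 7 were below 0, beside 45.6% of all genes, with a median of -0.12. Before adjustment 2 were called higher, beside 3.62% of all genes. After adjustment 0 were higher and 2 lower, beside 1.09% and 1.54%. Dlx3 of this list was at 0.72 (0.45 after adjustment), with 1.16 in the 17 and -0.03 in the 10. Circadian, Hedgehog and Notch genes had medians of -0.06, 0.01 and -0.06 with 0 genes called.

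The limits on cells left out 5 mutant bulge cells, and 1 of these held Cdk1 with 7042 genes above 0.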
